A study of Anser cygnoides with 11 samples.

Results

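The genes described here encode subunits and assembly factors of the mitochondrial respiratory chain and ATP synthase, measured in the kidney of goslings with and without visceral gout. Members were taken by symbol: names starting with NDUFA, NDUFB, NDUFC, NDUFS, NDUFV, COX4 to COX8, UQCR, ATP5, or SDHA to SDHD, where SDHA also covers the assembly factors SDHAF2 and SDHAF4. The pattern found 51 of the 19275 rows of the table and 49 symbols, because NDUFV1 and SDHC each had a second row. The more abundant row stood for the symbol. Complex I had 24 members, complex II had 4, complex IV had 1 (NDUFA4) and ATP synthase, complex V, had 11. The other 9 were 8 assembly factors and ATP5S. No symbol of complex III and no COX symbol was in the table.

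Polyadenylated RNA was sequenced from renal tissue of 11 swan geese (Anser cygnoides) at the gosling stage, 5 labelled as having gout and 6 as healthy controls. In visceral gout urate is laid down on the organs, and birds excrete most of their nitrogen as urate through the kidney. The labels give no genotype, treatment of the controls, sex, age or batch, and nothing links a gout gosling to a control gosling. The deposited values are FPKM, a fragment density per transcript length, divided by the size of the library. The table has no counts, so sequencing depth is unknown.

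The respiratory chain sits in the inner mitochondrial membrane. Complex I takes electrons from NADH and complex II from succinate. Both pass them over ubiquinone to complex III, which hands them to cytochrome c and so to complex IV, where oxygen is reduced. Complexes I, III and IV pump protons, and complex V uses the proton gradient to make ATP. The tubules of the kidney reabsorb and secrete solutes against gradients and are rich in mitochondria.

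The summed FPKM of a column lay between 229465 and 399990 in gout goslings and between 306484 and 390546 in controls. Gout 3 had the lowest sum and gout 5 the highest. The 10 rows of highest FPKM made up 27.5% ± 1.65 of the gout sum (SD, n = 5) and 21.2% ± 1.37 of the control sum (SD, n = 6). Testing covered the 12252 rows that reached 1 FPKM in 5 or more libraries, and their median log2 fold change was -0.29. This median was -0.21 on the TPM scale, -0.07 after upper quartile scaling and 0.01 after quantile normalization, cyclic loess or median centring. Markers of lymphocytes were lower in gout at 6 of 6 tested, and those of macrophages at 5 of 5. Of proximal tubule markers 3 of 7 were lower, and of distal tubule and loop markers 3 of 7. Of podocyte markers 1 of 4 was lower, and the tested markers of skeletal muscle and adrenal, 1 each, did not pass. These counts are at a limma adjusted p under 0.05, where 6.29% of all tested rows were lower. None of the 6 erythrocyte markers sought had a row by symbol, and rows named by a LOC number were not searched for them.

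Of the 49 members, all of which passed the filter, 1 passed limma's test at an adjusted p under 0.05. This was NDUFAF2, an assembly factor of complex I, and it was lower in gout. Among all tested rows 6.99% passed, 6.29% as lower and 0.694% as higher, against 2.04% of the members. At an unadjusted p under 0.05 there were 15 members, 14 of them lower, which is 30.6% against 27.0% of all rows. The median log2 fold change of the members was -0.31, beside -0.29 for all rows, and 38 of 49 (77.6%) had a negative sign, beside 76.8% of all rows. The share at an unadjusted p, the share of negative signs and the median lay near those of the whole table. The 2.04% stands for 1 gene of 49. None of these values is read as a result about the chain.

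In no member did gout and control values separate completely, while all gout values were below all control values in 4.55% of tested rows and above them in 0.482%. In 11 members (22.4%) at least 4 of the 5 gout goslings were below all 6 controls, against 17.5% of all rows. Tissue RNA cannot tell fewer cells of a type from less RNA per cell. The number of calls depended on gosling gout 5. Without it 10 members were called, all lower, while 11.4% of all rows were then called lower. Gout 5 was the highest gout gosling in 38 of 49 members (77.6%), against 39.3% of all rows. Leaving it out lowers the gout mean wherever it is highest, so this fit favours lower calls in the members.

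**Figure D1:**
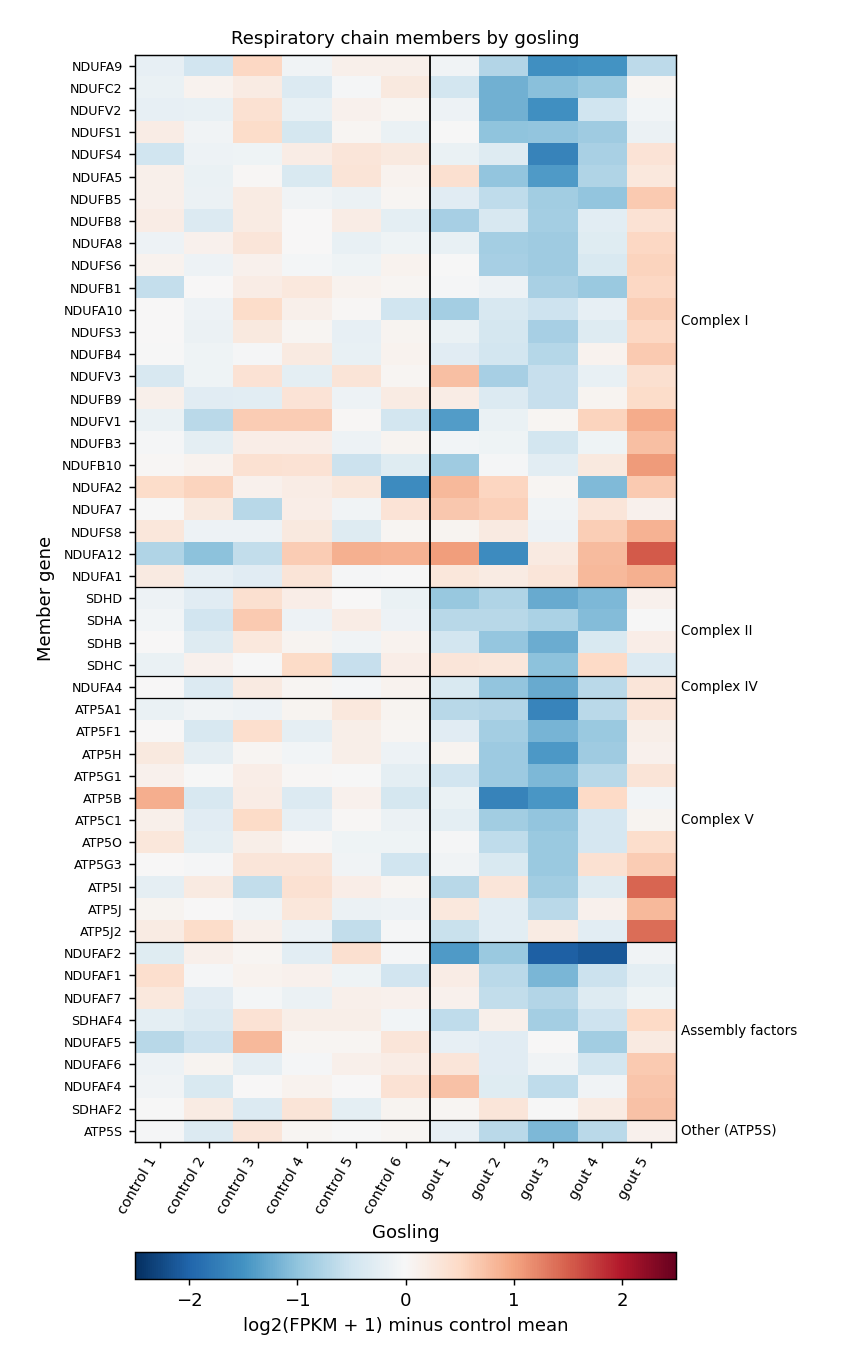
Difference of log2(FPKM + 1) from the control mean for each of the 49 members (rows, by complex) in each gosling (columns, the 6 controls left of the line). Blue is lower and red higher than the control mean; gout 3 is the lowest gout gosling in 32 members and gout 5 the highest in 38.

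Complex I is the largest enzyme of the chain, with an NADH-oxidising N module, a ubiquinone-reducing Q module and a proton-pumping P module in the membrane. None of its 24 members passed the test (adjusted p from 0.0688 to 0.996), 18 had negative and 6 positive fold changes, and the median was -0.26. It was -0.12 on the TPM scale, 0.01 after upper quartile scaling, 0.02 after quantile normalization, and 0.04 after cyclic loess or median centring, where the median of all rows was -0.21, -0.07 and, for the last 3, 0.01. The medians of the modules were -0.09 for N (9 members), -0.37 for Q (4 members) and -0.27 for P (11 members).

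NDUFA9, an accessory subunit at the junction of the Q and P modules, had the lowest fold change of complex I. Its FPKM values were 38.7, 24.7, 13.6, 14.1 and 25.9 in gout and 35.9, 29.5, 59.8, 38.8, 45.5 and 45.3 in control goslings. All gout goslings but gout 1 were below every control, and gout 1 lay within the control range. The log2 fold change was -0.90 (SE 0.29, limma adjusted p = 0.0688), and without gout 1 it was -1.10 with adjusted p = 0.0224. On leaving out any other gosling NDUFA9 did not pass (limma adjusted p from 0.0575 to 0.153).

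NDUFA1, a small membrane subunit of the P module, had the highest fold change of complex I. Its FPKM values were 80.4, 76.6, 81.9, 116 and 124 in gout and 77.0, 57.6, 54.2, 82.5, 64.6 and 65.5 in control goslings. Only gout 4 and gout 5 exceeded all controls, while the other gout goslings were near the highest controls. The log2 fold change was 0.50 (SE 0.21, limma adjusted p = 0.156). It passed as higher under each of the other scalings, with 0.65 on the TPM scale (adjusted p = 0.0438), 0.77 after upper quartile scaling (0.0415), 0.77 after quantile normalization (0.0321), 0.80 after cyclic loess (0.0313) and 0.80 after median centring (0.0498). The share of all rows called higher was 1.15%, 1.48%, 1.84%, 1.81% and 1.52% in the same order. Under quantile normalization 226 rows were called higher and 245 lower, against 85 and 771 on the deposited scale.

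Of the catalytic core, NDUFS1, the largest iron-sulphur subunit of the N module, had 39.7, 19.6, 19.7, 21.2 and 36.3 FPKM in gout. Its controls had 45.9, 37.7, 55.5, 29.2, 41.7 and 35.9 FPKM. Gout 2, 3 and 4 were under the lowest control, and gout 1 and 5 were inside the control range (log2 fold change -0.61, SE 0.25, limma adjusted p = 0.145). NDUFV1 carries the flavin site where NADH is oxidised. Its FPKM ran from 23.3 to 121 in gout, with a mean of 71.3 ± 37.0 (SD, n = 5), and from 38.9 to 97.2 in control, with a mean of 66.4 ± 25.3 (SD, n = 6). The control range lay inside the gout range, at a log2 fold change of -0.01 (SE 0.39, limma adjusted p = 0.995). Its second row averaged 6.16 ± 2.10 FPKM in gout (SD, n = 5) against 6.39 ± 1.98 in control (SD, n = 6).

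The most abundant complex I members were accessory subunits of the membrane arm. NDUFB4 had 194 ± 78.0 FPKM in gout (SD, n = 5) against 204 ± 20.6 in control (SD, n = 6). NDUFB9 had 196 ± 55.2 and 198 ± 36.1, and NDUFB3 had 156 ± 54.9 and 150 ± 16.6. Their group means differed by less than either SD, and their log2 fold changes of -0.14, -0.05 and -0.002 turned positive under every other scaling (limma adjusted p from 0.736 to 0.996).

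NDUFA12, an accessory subunit of the N module, was the most uneven member of complex I among controls. Its FPKM values were 30.3, 24.7 and 33.4 in control 1, 2 and 3 and 80.6, 96.8 and 94.6 in control 4, 5 and 6. The gout values were 107, 16.6, 60.7, 90.5 and 151, with gout 2 below all controls, gout 1 and gout 5 above them, and the others inside their range. It was named after its values were seen. NDUFA2, another N module subunit, had 3.56 FPKM in control 6 and 13.5 to 18.9 in the other controls, and was also named after its values were seen.

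The other complex I members lay between the abundant membrane subunits and NDUFV3, the least abundant at a mean of 4.86 FPKM. NDUFC2, a membrane subunit near the junction with the peripheral arm, had 41.4, 24.4, 27.1, 29.5 and 59.1 FPKM in gout and 44.8 to 67.9 in control goslings. Gout 1 to 4 were below all controls and gout 5 was within their range. NDUFV2, an iron-sulphur subunit of the N module, had 51.0, 23.6, 18.5, 39.2 and 52.7 FPKM in gout and 48.2 to 72.9 in control goslings, and gout 2, 3 and 4 were below all controls. NDUFS3 and NDUFS8, both core subunits of the Q module, differed in order: NDUFS3 had 49.3 ± 18.6 FPKM in gout (SD, n = 5) against 56.2 ± 6.39 in control (SD, n = 6). NDUFS8 had 117 ± 34.2 FPKM in gout against 90.9 ± 14.9 in control (SD, n = 5 and 6). Neither passed the test (limma adjusted p = 0.516 and 0.369). The 4 genes were named after their values were seen.

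Without gout 5, 2 complex I members were called lower: NDUFC2 (log2 fold change -0.91, limma adjusted p = 0.0226) and NDUFB5, a membrane subunit (-0.69, adjusted p = 0.0444). In the same fit 11.4% of all tested rows were called lower. In NDUFB5 gout 5 had 190 FPKM, above all controls (109 to 139), and the other gout goslings had 60.3 to 98.8, below all of them. The same split between gout 5 and the other gout goslings was present in NDUFA8, where gout 5 had 20.4 FPKM, the other gout goslings 7.11 to 12.2 and the controls 12.2 to 17.5. NDUFB5 and NDUFA8 were also named after their values were seen.

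**Figure D2:**
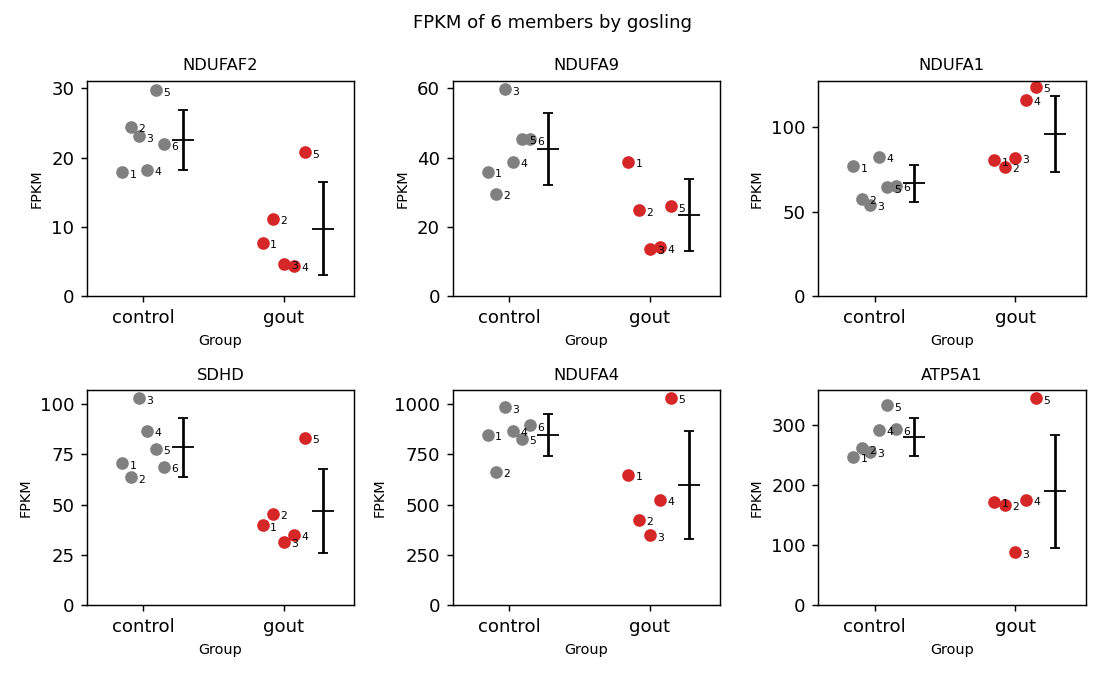
FPKM of 6 members in each gosling (points, numbered as in the labels) with group mean and SD (bars), control in grey with n = 6 and gout in red with n = 5. In NDUFAF2, NDUFA9, SDHD, NDUFA4 and ATP5A1 at least 4 gout goslings lie under all controls; in NDUFA1 2 lie above them.

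Complex II, succinate dehydrogenase, belongs to the TCA cycle as well as to the chain, and its subunits are all encoded in the nucleus. None of its 4 members passed the test (limma adjusted p from 0.074 to 0.915), and all 4 fold changes were negative, with a median of -0.61. The median stayed negative on every scale, at -0.47 on the TPM scale and between -0.31 and -0.34 under the other 4, while SDHC alone turned positive. Most of all tested rows also had a negative sign on the deposited scale, and their medians on each scale are given above.

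SDHD, a membrane anchor, had 39.8, 45.4, 31.5, 35.0 and 83.3 FPKM in gout and 70.5, 63.7, 103, 86.8, 77.7 and 68.9 in control goslings. Gout 1 to 4 were all below the lowest control and gout 5 was above 4 of the 6 controls. The log2 fold change was -0.80 (SE 0.26, limma adjusted p = 0.074).

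SDHA, the flavoprotein that oxidises succinate, had 26.9, 27.2, 25.3, 20.5 and 44.1 FPKM in gout and 42.0, 31.5, 70.0, 40.3, 50.2 and 40.5 in control goslings. SDHB, the iron-sulphur subunit, had 136, 95.5, 78.7, 144 and 210 FPKM in gout and 188, 149, 224, 196, 175 and 199 in control goslings. In both genes gout 1 to 4 were under every control and gout 5 was inside the control range. The log2 fold changes were -0.65 (SE 0.25, limma adjusted p = 0.117) and -0.57 (SE 0.26, adjusted p = 0.17).

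SDHC, the other membrane anchor, did not share this order. It had 130, 128, 50.6, 148 and 82.2 FPKM in gout and 92.9, 112, 104, 146, 70.0 and 118 in control goslings, with a log2 fold change of -0.06 (SE 0.29, limma adjusted p = 0.915). Gout 4 was the highest of all 11 goslings and gout 3 the lowest. Its second row lay between 4.48 and 21.7 FPKM in gout and was listed at 0 in control 4.

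Without gout 5, SDHD, SDHA and SDHB were called lower, with log2 fold changes of -1.02, -0.81 and -0.76 (limma adjusted p = 0.013, 0.042 and 0.0482). With all goslings none of them was. The share of all tested rows called lower without gout 5 was 11.4%.

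**Figure D3:**
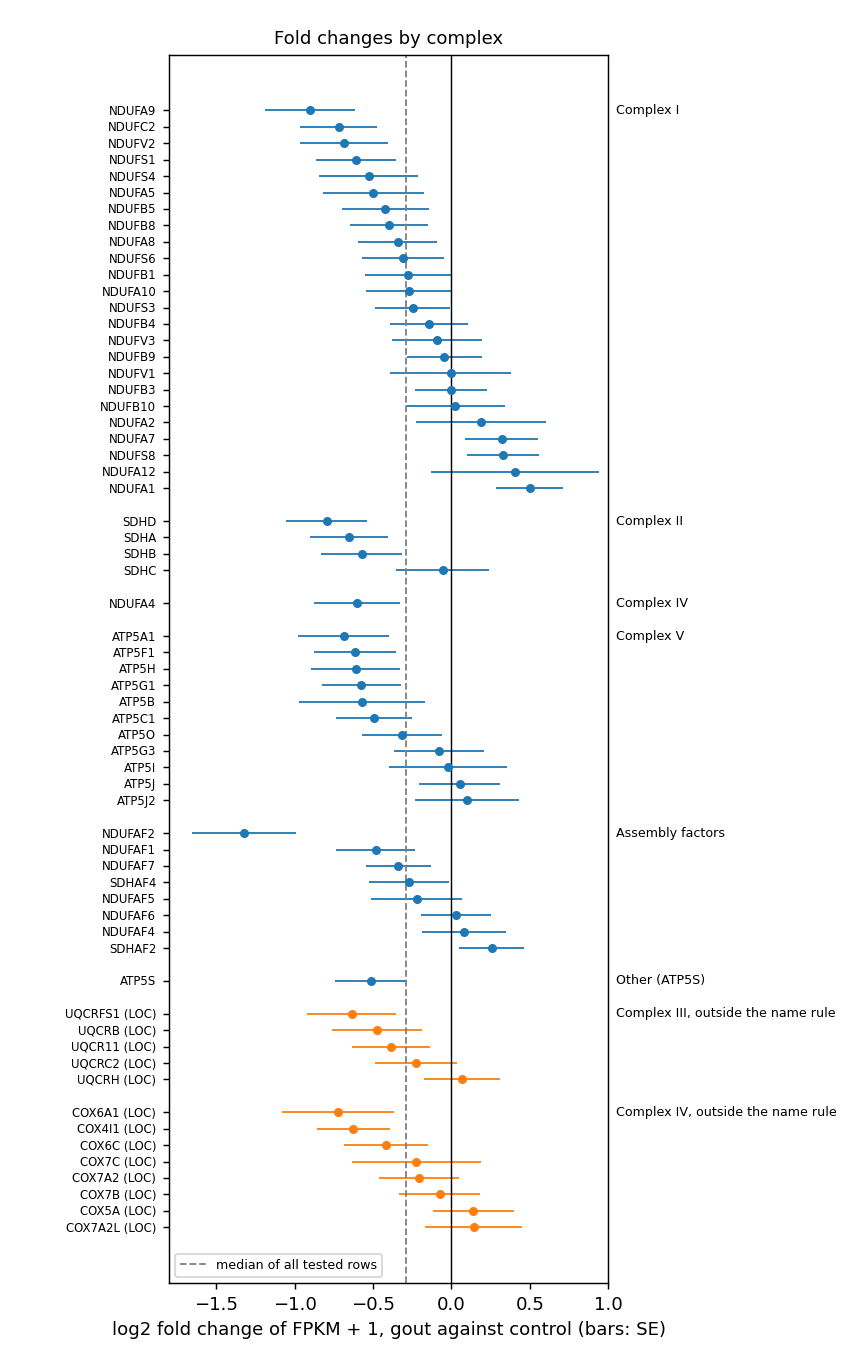
Log2 fold change of FPKM + 1 in gout against control for the 49 members (blue) and for complex III and IV genes that the name rule does not reach (orange), with the SE from limma as bars. The dashed line is the median of all tested rows, -0.29; NDUFAF2 at -1.32 lies farthest from it on the left and NDUFA1 at 0.50 farthest on the right.

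Complex IV was represented by NDUFA4, long counted with complex I and now placed in cytochrome c oxidase. It was the most abundant member, with a mean of 734 FPKM over all goslings. Its values were 650, 427, 349, 526 and 1033 FPKM in gout and 849, 664, 984, 868, 828 and 895 in control goslings. Gout 1 to 4 were below every control, and gout 5 was above every control. The log2 fold change was -0.60 (SE 0.28, limma adjusted p = 0.178), and without gout 5 it was -0.82 with adjusted p = 0.0387. On leaving out any other gosling NDUFA4 did not pass (limma adjusted p from 0.15 to 0.354).

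The rest of complexes III and IV was sought, after the data were seen, among rows named only by a LOC number. Of 5802 such rows 924 had a symbol in the RefSeq annotation under the same gene ID, and 17 symbols of the chain were found in 19 rows. They comprised 5 of complex III, 8 of complex IV, 2 of complex I and 2 of complex V. None passed the test. The median log2 fold change was -0.38 for the 5 complex III genes and -0.22 for the 8 complex IV genes, and after quantile normalization -0.12 and 0.05.

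UQCRFS1, the Rieske iron-sulphur protein of complex III, had 81.8, 84.9, 84.1, 106 and 237 FPKM in gout and 164, 150, 229, 165, 173 and 142 in control goslings. As in NDUFA4, gout 1 to 4 were below all controls and gout 5 above them (log2 fold change -0.64, SE 0.28, limma adjusted p = 0.169). COX4I1, which is needed for assembly of complex IV, had 435, 366, 332, 463 and 701 FPKM in gout and 755, 645, 812, 708, 618 and 596 in control goslings. Gout 5 was here inside the control range and the others below it (log2 fold change -0.63, SE 0.23, limma adjusted p = 0.11). COX5A, another nuclear subunit, had 61.6 ± 24.0 FPKM in gout (SD, n = 5) against 53.3 ± 9.66 in control (SD, n = 6), at 0.14 (SE 0.26, limma adjusted p = 0.753). COX6A1 had 442 ± 236 and 644 ± 134, at -0.72 (SE 0.36, limma adjusted p = 0.21).

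COX7A2L is a relative of COX7A2 that takes part in joining complexes III and IV into supercomplexes. The log2 ratio of COX7A2L to COX7A2 was -1.20 ± 0.28 in gout (SD, n = 5) and -1.55 ± 0.42 in control (SD, n = 6). The difference of 0.35 did not pass an exact two-sided permutation test (p = 0.143; 462 splits, smallest possible p 0.00216). None of the 26 symbols sought for genes of the mitochondrial genome had a row, and LOC rows were not searched for them. The subunits encoded there were therefore not analysed here.

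Complex V consists of the catalytic F1 head and the membrane Fo part joined by stalks. None of its 11 members passed the test (limma adjusted p from 0.149 to 0.974), 9 had negative and 2 positive fold changes, and the median was -0.49. It stayed negative on every scale, at -0.35 on the TPM scale and between -0.20 and -0.23 under the other 4. The 3 members of F1 all had negative fold changes, with a median of -0.57, and the 8 of Fo and stalk had a median of -0.20. On the deposited scale a negative sign was also the more common among all tested rows.

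ATP5A1, the alpha subunit of F1, had 173, 168, 88.4, 176 and 345 FPKM in gout and 248, 262, 256, 293, 334 and 293 in control goslings. Gout 1 to 4 were below all controls, with gout 3 far under the others, and gout 5 was above all controls. The log2 fold change was -0.69 (SE 0.29, limma adjusted p = 0.149), and without gout 5 it was -0.94 with adjusted p = 0.0291. On leaving out any other gosling ATP5A1 did not pass (limma adjusted p from 0.156 to 0.302).

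ATP5B, the beta subunit that holds the catalytic sites, was the most abundant member of complex V. It had 362, 128, 149, 575 and 391 FPKM in gout and 765, 307, 466, 320, 436 and 300 in control goslings. Unlike in ATP5A1, gout 4 was here the highest gout gosling, and only gout 2 and gout 3 were under all controls (log2 fold change -0.57, SE 0.40, limma adjusted p = 0.371).

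The stalk and membrane subunits ATP5J and ATP5J2 had the only positive fold changes of complex V, at 0.05 (SE 0.26) and 0.10 (SE 0.33; limma adjusted p = 0.91 and 0.864). ATP5J had 255 ± 99.5 FPKM in gout (SD, n = 5) against 233 ± 27.0 in control (SD, n = 6). ATP5J2 had 36.7, 45.4, 62.8, 45.1 and 146 FPKM in gout, where gout 5 alone exceeded the controls, and 56.1 ± 13.7 in control (SD, n = 6). Without gout 5 both fold changes were negative, at -0.14 and -0.23.

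Of the other stalk and membrane subunits, ATP5G1, which encodes the proton-carrying c subunit, had 44.9, 33.1, 28.5, 38.3 and 79.1 FPKM in gout and 52.6 to 70.2 in control goslings. All controls were above gout 1 to 4 and below gout 5. ATP5G3 encodes the same mature c subunit from another gene, and it had 128 ± 52.6 FPKM in gout (SD, n = 5) against 128 ± 25.3 in control (SD, n = 6). The peripheral stalk subunit ATP5F1 had 64.1, 43.4, 34.4, 41.1 and 87.2 FPKM in gout and 59.3 to 106 in control goslings, so that gout 2, 3 and 4 were below all controls. Without gout 5, ATP5G1 (log2 fold change -0.80, limma adjusted p = 0.0255) and ATP5F1 (-0.81, adjusted p = 0.0434) were called lower with ATP5A1. The share of all tested rows called lower in that fit was 11.4%. ATP5I, a small membrane subunit, had the largest gout coefficient of variation of all members (77.0%), with 358 FPKM in gout 5 and 70.9 to 159 in the other gout goslings, beside 84.0 to 169 in controls. These 4 genes were named after their values were seen.

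The assembly factors help put complexes I and II together and are not part of the finished enzymes. They were the least abundant class, with means from 3.19 to 16.7 FPKM over all goslings, against 4.86 to 199 in complex I and 54.8 to 382 in complex V. Their median log2 fold change was -0.25.

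NDUFAF2, the only member called, is a chaperone that sits on a late intermediate of complex I in place of NDUFA12. It had 7.73, 11.2, 4.62, 4.36 and 20.8 FPKM in gout and 17.9, 24.4, 23.0, 18.3, 29.7 and 21.9 in control goslings. Gout 1 to 4 were far under every control and gout 5 was inside the control range. The mean was 9.73 ± 6.77 in gout (SD, n = 5) and 22.5 ± 4.38 in control (SD, n = 6), a log2 fold change of -1.32 (SE 0.33, limma adjusted p = 0.0323).

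The direction of NDUFAF2 was the same under each scaling, with log2 fold changes from -1.26 on the TPM scale to -1.02 after median centring, but the call was lost in 4 of the 5. The adjusted p was 0.0426 on the TPM scale, 0.0618 after upper quartile scaling, 0.0583 after quantile normalization, 0.0626 after cyclic loess and 0.0652 after median centring. The call was also lost on leaving out any control but control 4, or gout 2, 3 or 4 (adjusted p from 0.0505 to 0.0803). Without gout 5 the gout mean was 6.97 FPKM and the adjusted p 0.007.

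NDUFAF7, a methyltransferase needed for assembly of complex I, had 10.7 ± 2.81 FPKM in gout (SD, n = 5) against 13.6 ± 2.0 in control (SD, n = 6; limma adjusted p = 0.309). NDUFAF5, a hydroxylase of NDUFS7, had 9.21 ± 2.67 and 11.3 ± 4.70 FPKM (limma adjusted p = 0.64). SDHAF2, which is needed to attach the flavin to SDHA, had 10.8 ± 2.60 and 8.81 ± 1.71 FPKM, the highest fold change of the class at 0.26 (SE 0.21, limma adjusted p = 0.444). The gout and control ranges overlapped in all 3 genes.

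**Figure D4:**
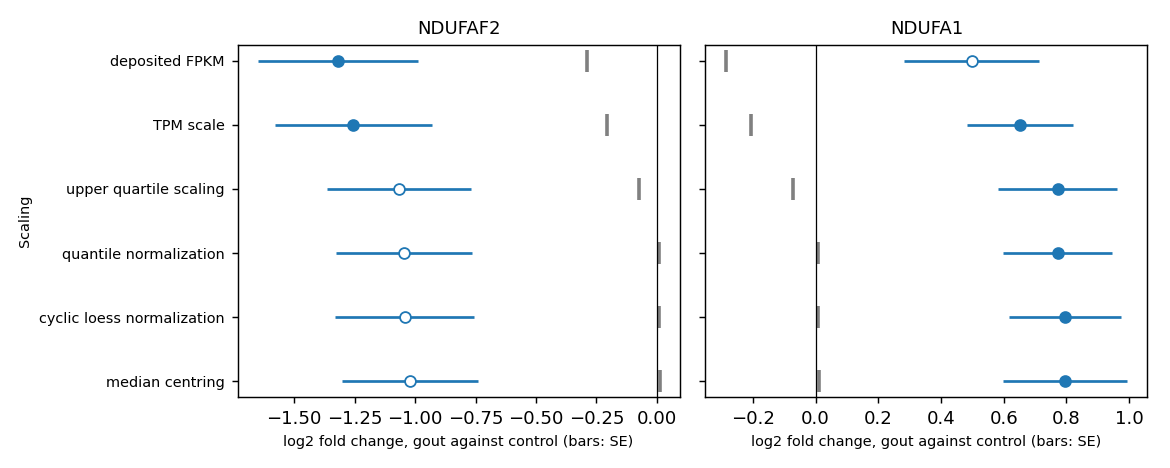
Log2 fold change (SE as bars) of NDUFAF2 and NDUFA1 under the deposited FPKM scale and 5 other scalings; filled points have an adjusted p under 0.05 and grey ticks mark the median of all tested rows. NDUFAF2 is filled on the first 2 scales only and NDUFA1 on all but the first.

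The gout goslings differed among themselves more than the controls did. The coefficient of variation was larger in gout than in control in 47 of 49 members (95.9%), beside 80.7% of all tested rows. Its median over the members was 42.0% in gout and 18.5% in control, and over all rows 43.0% and 27.4%.

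The highest and the lowest gout gosling were each the same in most members, counted separately. Gout 5 was the highest gout gosling in 38 of 49 members (77.6%), against 39.3% of all tested rows. In 30 members (61.2%) it exceeded every control, against 21.7% of all rows. Gout 3 was the lowest gout gosling in 32 members (65.3%), against 36.7% of all rows. The place of gout 5 was not particular to the members. In lists described below it was the highest gout gosling in 81.8% of coenzyme Q synthesis genes and 77.8% of import proteins. The share was 73.3% in the TCA cycle, 50.0% in other electron entry points and 31.2% in regulators. Gout 3 was the lowest in 63.6%, 66.7%, 33.3%, 16.7% and 31.2% of the same lists. These are descriptions of single goslings, with no test.

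The median difference of the members from their control means, on the log2 scale, was -0.17, -0.61, -0.86, -0.38 and 0.40 in gout 1 to 5. For all tested rows it was 0.002, -0.46, -0.61, -0.42 and 0.02. Gout 5 thus stood above the control mean in the members and near it in the table as a whole, while gout 2, 3 and 4 were under it in both. The members held 1.18%, 1.32%, 1.14%, 1.31% and 1.70% of the FPKM of gout 1 to 5. The controls held 1.37%, 1.25%, 1.78%, 1.60%, 1.40% and 1.48%, so that the groups overlapped (means 1.33 ± 0.22 and 1.48 ± 0.19; SD, n = 5 and 6).

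Among markers of other cells, gout 5 had a proximal tubule sum of 862 FPKM, the highest of the gout goslings (370 to 862) and within the control range (451 to 2367). All 7 proximal tubule markers in the table were counted. Its distal tubule and loop sum was 112 FPKM, also the highest of gout (51.5 to 112) and just under the lowest control (113). The lymphocyte sum ran from 4.34 to 138 FPKM in gout and from 96.5 to 563 in control, and the macrophage sum from 140 to 1448 and from 982 to 4870. In gout 5 these were 5.38 and 211 FPKM. The part of cell composition in the members' values was not tested.

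**Figure D5:**
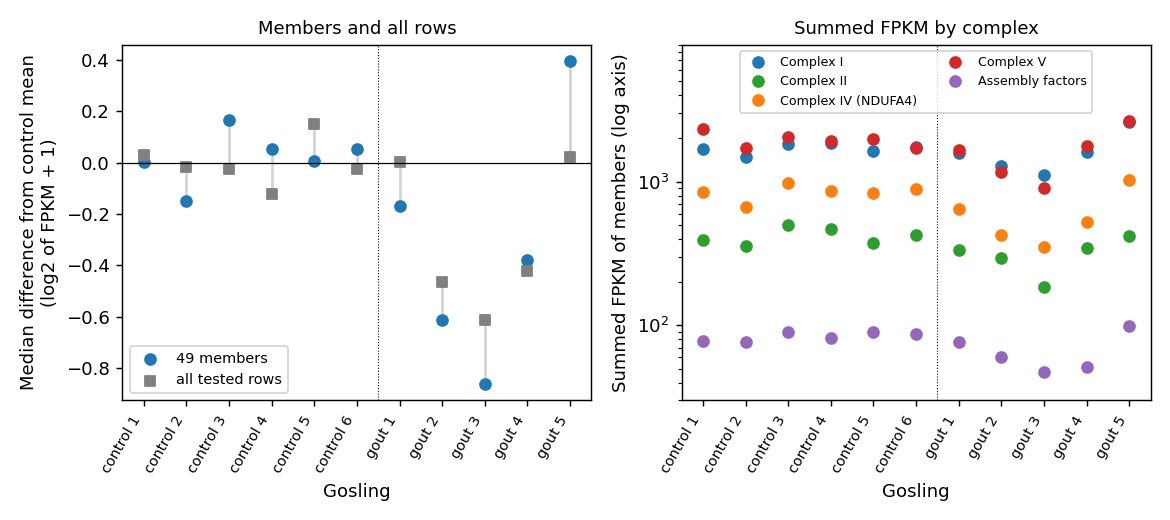
Left, the median difference from the control mean (log2 of FPKM + 1) over the 49 members (circles) and over all tested rows (squares) in each gosling, from -0.86 in gout 3 to 0.40 in gout 5 for the members. Right, the summed FPKM of the members by complex on a log axis; gout 3 has the lowest and gout 5 the highest sum of the gout goslings in every class shown.

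Other genes of mitochondrial energy metabolism were counted from lists. Of coenzyme Q synthesis, which makes the electron carrier between complexes I, II and III, 2 of 11 tested genes were lower and none higher, where 6.29% of all tested rows were lower. The median of the list was -0.20, beside -0.29 for all rows. ADCK3, an atypical kinase of coenzyme Q synthesis, fell from 10.2 ± 2.62 FPKM in control (SD, n = 6) to 4.44 ± 1.78 in gout (SD, n = 5), a log2 change of -1.09 (SE 0.27, limma adjusted p = 0.0307). COQ10B, a coenzyme Q binding protein, fell from 10.6 ± 5.36 to 3.86 ± 1.86 FPKM (log2 change -1.21, SE 0.34, limma adjusted p = 0.0476). After quantile normalization neither passed (limma adjusted p = 0.0778 and 0.154).

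Of the mitochondrial antioxidants 1 of 7 was lower, where 6.29% of all tested rows were lower, with a median of -0.38 over the list. SOD2, the superoxide dismutase of the matrix, had 43.6, 31.6, 32.8, 51.4 and 116 FPKM in gout and 117, 102, 172, 114, 156 and 74.6 in control goslings. Gout 1 to 4 were below all controls and gout 5 within their range, the order seen in SDHA and NDUFAF2. The log2 change was -1.26 (SE 0.33, limma adjusted p = 0.0396), and after quantile normalization it was -1.01 with adjusted p = 0.0427.

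In the other lists no gene passed on the deposited scale. These were 15 genes of the TCA cycle (median -0.43), 6 of other electron entry points such as the electron transfer flavoprotein (-0.64), and 8 carriers and other inner or outer membrane proteins (-0.19). There were also 12 further assembly factors (-0.29), 60 mitochondrial ribosomal proteins (-0.18), 9 import proteins (-0.10), and 7 genes of uncoupling, fusion, fission and mitophagy (-0.30). Gout 5 was the highest gout gosling in 42 of the 60 ribosomal proteins (70.0%) and gout 3 the lowest in 47 (78.3%). Among all tested rows these shares were 39.3% and 36.7%. After quantile normalization the assembly factor ATPAF2 passed as higher (log2 change 0.80, limma adjusted p = 0.0234). The ribosomal protein MRPL16 also did (0.79, limma adjusted p = 0.0302), where 1.84% of all tested rows were called higher.

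None of 16 transcriptional and biogenesis regulators passed, at a median of -0.17. PPARGC1A, a coactivator that drives mitochondrial biogenesis, had 1.31 ± 0.60 FPKM in gout (SD, n = 5) against 1.24 ± 0.46 in control (SD, n = 6; limma adjusted p = 0.942). NRF1, a transcription factor of many nuclear respiratory genes, had 2.45 ± 0.98 and 3.39 ± 1.56 FPKM (limma adjusted p = 0.497). GABPA, another such factor, had 5.54 ± 1.51 and 7.30 ± 1.48 FPKM (limma adjusted p = 0.277). TFAM, which packages and transcribes mitochondrial DNA, had 22.6 ± 6.99 and 24.4 ± 5.82 FPKM (limma adjusted p = 0.782). The gout and control ranges overlapped in all 4.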

How the data were processed

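RNA was taken up in Trizol and enriched for polyadenylated transcripts, per the labels' protocols. A treatment text on oxygen in tanks and a mention of adipose tissue in the labels match neither goslings nor kidney and were not used. HISAT and StringTie were the tools, per the submitters' processing notes. Their versions and the genome build are not given in the sources used here. FPKM values were made and deposited by the authors. How the transcripts of a gene were combined is not stated, and 26 of the 49 members had more than 1 transcript. Because FPKM is a share of its library, more of an abundant transcript means less of the others.

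Each column was matched to a gosling by its title. Ratios of values below 0.5 FPKM were examined for steps left by single fragments; no more than 1.02% of rows had a common ratio, within 0.1%, in any of 55 library pairs, so no counts were recovered, depth is unknown and no counting intervals are given.

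Values were analysed as log2(FPKM + 1) with limma 3.58.1 in R 4.3.3 (two-sided moderated test of the group term, prior variance following the mean level). Benjamini-Hochberg adjustment ran over the 12252 rows that reached 1 FPKM in 5 or more of the 11 libraries, and the threshold was 0.05. With the added 1, fold changes of rows near 1 FPKM are understated. Tables and figures used Python 3.11.15, pandas 2.3.3 and matplotlib 3.10.9. The limma fit was tested on simulated data with independent noise in each row. Shifts of whole libraries were not simulated. The labels describe separate goslings, and the test sets the group difference against a spread between goslings pooled over both groups. Among the members the median coefficient of variation was 42.0% in gout and 18.5% in control, and the main fit does not model this inequality.

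The members and lists were chosen with earlier results of these data known. Members were named where they passed the test or belong to the catalytic core. Members with the 3 highest means or the highest or lowest fold change of their complex were named too. Genes of other lists were named where they passed on the deposited scale, with PPARGC1A, NRF1, GABPA and TFAM. ATPAF2 and MRPL16 were named for passing after quantile normalization. The rule also asked for UQCRC1, CYC1 and ESRRA, which had no row by symbol and were not analysed here. The LOC rows were named with the RefSeq annotation of another goose assembly, by gene ID only. From the members, 4 rows that join a member symbol to another gene were left out. In the lists of ribosomal and import proteins such joined rows were kept, among them MRPL44 with MFF and TOMM20 with RBM34. The alternatives were other pseudocounts, filters and scalings, robust and untrended empirical Bayes, array weights, a replicate block, a rank-sum test, summed rows, and each gosling left out. Median centring, the LOC rows and the ratio of COX7A2L to COX7A2 were added after the data were seen.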

Additional observations from a re-analysis of the deposited data

Results flagged for a closer look

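In 64 groups of 5 or 6 goslings, a single value far from the others was sought, which chance gives in about 1 of 20 groups. It was found in 2. UQCRFS1 had 237 FPKM in gout 5, where the next gout gosling had 106 FPKM. GABPA had 10.3 FPKM in control 5, where the next control had 7.17 FPKM.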

How the results depend on the processing

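Of the 49 members, 1 was called, and 2 on the TPM scale or with array weights. There were 0 with no filter on low values, by the exact rank-sum test (3 members at an unadjusted p under 0.05), or without the assembly factors and ATP5S (0 of 40 subunits by limma, 13 at an unadjusted p under 0.05). Leaving out each gosling gave from 0 to 10 members, the 10 without gout 5, and from 301 to 1461 of all rows, the ends being without control 5 and without gout 5. Of all tested rows 856 were called, 450 with a filter at 5 FPKM, 463 after cyclic loess and 406 after median centring. There were 471 after quantile normalization, 522 after upper quartile scaling and 0 by the rank-sum test (2182 at an unadjusted p under 0.05). The rank-sum test gives its smallest possible p to every row whose groups separate completely. ADCK3 was such a row, and its rank-sum adjusted p was 0.0861. No row could therefore pass by that test, so its 0 calls, among all rows and among the members, are not read as a result. The median of the members, -0.31, ran from -0.21 to -0.50 on leaving out each gosling. It was -0.17 on the TPM scale, -0.04 after upper quartile scaling, -0.02 after quantile normalization or cyclic loess, and -0.01 after median centring; the median of all rows was -0.21, -0.07 and, for the last 3, 0.01. Their share of FPKM in gout minus control was -0.15 percentage points, from -0.09 to -0.25 on leaving out each gosling, and -0.043 without the 10 most abundant rows in the total.

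Some small log2 fold changes turned sign with the setting; the cause was not tested. In the order TPM scale, upper quartile, quantile, cyclic loess and median centring, NDUFB3 had 0.15, 0.27, 0.29, 0.28 and 0.30. NDUFB4 had 0.0058, 0.13, 0.17, 0.14 and 0.16, and NDUFB9 had 0.10, 0.23, 0.29, 0.23 and 0.25. NDUFV1 had 0.14, 0.27, 0.26, 0.29 and 0.29, and 0.015 with its rows summed. SDHC had 0.093, 0.22, 0.23, 0.24 and 0.24, and TFAM had 0.024, 0.15, 0.13, 0.16 and 0.18. NDUFAF5 had 0.030, 0.085, 0.068 and 0.076 in the last 4. NRF1 had 0.018 after quantile normalization, and ATP5J had -0.058 with array weights. On leaving out each gosling, ATP5J ran from -0.14 to 0.23, ATP5J2 from -0.23 to 0.27, NDUFB3 from -0.19 to 0.11, NDUFB4 from -0.34 to 0.0023, NDUFB9 from -0.17 to 0.088, NDUFV1 from -0.24 to 0.34, SDHC from -0.19 to 0.19, PPARGC1A from -0.062 to 0.14 and COX5A from -0.049 to 0.32.

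Gout and control goslings with the same number did not deviate together (correlations 0.24, -0.09, 0.02, -0.03 and 0.08), so the numbers were not taken as pairs. With the replicate block 1 member and 671 rows were called, and NDUFB3 had a log2 fold change of 0.011. The planned isoform ratios by symbol and promoter motifs were not run, since the symbols and promoter sequences were not at hand. Depth is unknown, so no statement on detection at low FPKM is made.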
